A study of Arabidopsis thaliana with 8 samples.

Results

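Late embryogenesis abundant (LEA) genes were represented by 7 members, taken as the probes annotated to 7 named loci. The loci were named with earlier results of these data known, so their high ratios as a group are a description. They are AT3G17520, AT3G15670, AT5G44310, AT2G42560 and AT4G36600 of the LEA_4 class, AT2G21490 (gene symbol LEA) of the dehydrin class, and LEA4-5 (AT5G06760) of the LEA_1 class. Each member had a single probe, and all 7 probes had a value on all 8 slides. The table held 26912 probes, of which 14485 were matched to 14228 loci. The slides compared siliques, the seed pods of Arabidopsis thaliana, at a stage called 90%-late with siliques at an early stage. The 90%-late sample was 90% late material (6 to 10 days after pollination, DAP) with 10% early material added, and the early sample was harvested at 2 to 5 DAP. Target was prepared from 5 µg of total RNA by 1 round of in vitro transcription (IVT), from 50 ng by 2 rounds (2IVT), from 50 ng by 20 cycles of PCR, or from 30 µg without amplification (unamplified). There were 2 slides for each of these 4 regimes. No genotype or treatment separated the samples, and whole siliques were used, so embryo, endosperm, seed coat and pod wall contributed to every value.

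LEA proteins are hydrophilic and largely unstructured in solution. They accumulate in the embryo late in seed maturation, when the seed gains tolerance to drying, and many are also induced by abscisic acid, drought or cold in vegetative tissue. LEA_4 proteins carry a short repeated motif that can fold into an amphipathic helix as water is lost, dehydrins carry lysine-rich segments that associate with membranes, and LEA4-5 of the LEA_1 class protects enzymes from inactivation during water deficit.

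All values below are log2 ratios of 90%-late over early, so a positive value is higher in 90%-late and 1 unit is 2-fold. The deposited values run the other way and their sign was turned. The log base and the direction are not written in the table and were inferred from the dyes, early in Cy5 and 90%-late in Cy3 on every slide, and from the longer tail of values on 1 side. On the unamplified slides the 0.1 and 99.9 percentiles were -2.11 and 7.32, and -2.19 and 7.42, after the turn. The 99.9 percentile was lower on amplified slides, at 5.45 and 5.5 for IVT, 3.65 and 3.93 for 2IVT, and 2.8 and 2.45 for PCR. Between 22733 and 24403 probes had a value on a slide, and slide medians ran from -0.08 to -0.01. A single early RNA sample and a single 90%-late RNA sample served every slide, and per the labels both slides of a regime used the same 90%-late preparation, so the spread between slides measures preparation of early target and hybridization and not plants. The dyes were not swapped, so stage and dye cannot be told apart. The slides of a regime were consecutive in number, so an effect of slide batch cannot be told apart from that of regime. The same holds for an effect of the single 90%-late preparation of each regime. Errors are SD over the 2 slides, and adjusted p-values are from limma with Benjamini-Hochberg adjustment over all probes, with a threshold of 0.05 for a call. With 2 slides against 2, the smallest two-sided p of an exact permutation test is 0.333.

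The first question was whether each LEA gene differed between the stages, and by how much under each regime. AT3G17520 had the largest unamplified ratio of the members. Its log2 ratios were 4.60 and 4.94 for IVT, 3.38 and 3.45 for 2IVT, 1.70 and 1.18 for PCR, and 5.39 and 5.67 unamplified. The slides of each regime lay apart from those of every other regime, highest unamplified and lowest after PCR. The means were 4.77 ± 0.24, 3.41 ± 0.05, 1.44 ± 0.36 and 5.53 ± 0.20 in the same order (SD, n = 2 each), or 27.2-fold, 10.7-fold, 2.71-fold and 46.1-fold higher in 90%-late. In bulk tissue, more embryo cells and more RNA per cell cannot be told apart as the basis of such a ratio. The probe ranked 62 from the top of 23800 unamplified, and 242 of 22916 after PCR.

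AT3G15670, also of the LEA_4 class, had the highest ratio of the members after IVT and after PCR. Its log2 ratios were 6.39 and 5.39 for IVT, 3.0 and 2.69 for 2IVT, 2.67 and 2.07 for PCR, and 4.68 and 5.31 unamplified. The IVT slides were both above the unamplified slides, though the gap to the nearest was small beside the spread between the IVT slides, and the 2IVT and PCR slides nearly met. The means were 5.89 ± 0.70, 2.85 ± 0.21, 2.37 ± 0.42 and 5.00 ± 0.45 (SD, n = 2 each). This probe ranked 12 of 23849 after IVT and 28 of 22916 after PCR.

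AT5G44310, another LEA_4 gene, had log2 ratios of 4.37 and 4.90 for IVT, 3.01 and 3.69 for 2IVT, 0.83 and 0.98 for PCR, and 4.71 and 4.84 unamplified. The IVT slides enclosed the unamplified slides, the 2IVT slides were lower and the PCR slides lowest. The means were 4.63 ± 0.37, 3.35 ± 0.48, 0.91 ± 0.11 and 4.77 ± 0.09 (SD, n = 2 each). The PCR mean, 1.88-fold, passed the threshold (adjusted p = 0.00253 from limma) but did not without PCR replicate 2 (0.83, adjusted p = 0.0613).

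The remaining members of the LEA_4 class, AT2G42560 and AT4G36600, had smaller unamplified ratios. AT2G42560 had 2.94 and 3.42 for IVT, 2.92 and 3.15 for 2IVT, 0.46 and 0.56 for PCR, and 1.94 and 2.68 unamplified. Its IVT and 2IVT slides overlapped each other and lay above both unamplified slides, and the PCR slides were far below them. Its means were 3.18 ± 0.34, 3.04 ± 0.16, 0.51 ± 0.07 and 2.31 ± 0.52 (SD, n = 2 each). The PCR mean had an adjusted p of 0.0437 from limma, and of 0.174 without PCR replicate 1 and 0.263 without PCR replicate 2.

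AT4G36600 stood out by its small unamplified ratio. Its log2 ratios were 1.95 and 2.04 for IVT, 2.36 and 2.35 for 2IVT, 0.53 and 0.74 for PCR, and 0.56 and 0.40 unamplified. The 2IVT slides were highest, the IVT slides next, and the PCR and unamplified slides overlapped. The means were 2.00 ± 0.06, 2.36 ± 0.01, 0.64 ± 0.14 and 0.48 ± 0.11 (SD, n = 2 each), or 4.0-fold, 5.12-fold, 1.55-fold and 1.39-fold. All passed the threshold, the unamplified mean with an adjusted p of 0.00407 from limma, which was 0.0906 without unamplified replicate 1.

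AT2G21490, the dehydrin, had large ratios in all regimes but PCR. Its log2 ratios were 4.85 and 4.83 for IVT, 2.48 and 2.77 for 2IVT, 0.08 and 0.00 for PCR, and 4.36 and 5.02 unamplified. The IVT slides lay between the unamplified slides, and both PCR slides were at the level of equal signal in the stages. The means were 4.84 ± 0.02, 2.63 ± 0.20, 0.04 ± 0.06 and 4.69 ± 0.46 (SD, n = 2 each). After PCR the 95% interval ran from -0.29 to 0.37, the adjusted p was 0.866 from limma, and the probe ranked 10115 of 22916.

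LEA4-5 had log2 ratios of 3.41 and 3.37 for IVT, 2.36 and 2.84 for 2IVT, -0.09 and 0.41 for PCR, and 2.19 and 2.31 unamplified. The IVT slides were highest, the 2IVT slides were both slightly above the unamplified slides, and the PCR slides differed in sign. The means were 3.39 ± 0.03, 2.60 ± 0.34, 0.16 ± 0.36 and 2.25 ± 0.09 (SD, n = 2 each). After PCR the 95% interval ran from -0.16 to 0.48 (adjusted p = 0.434 from limma).

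**Figure D1:**
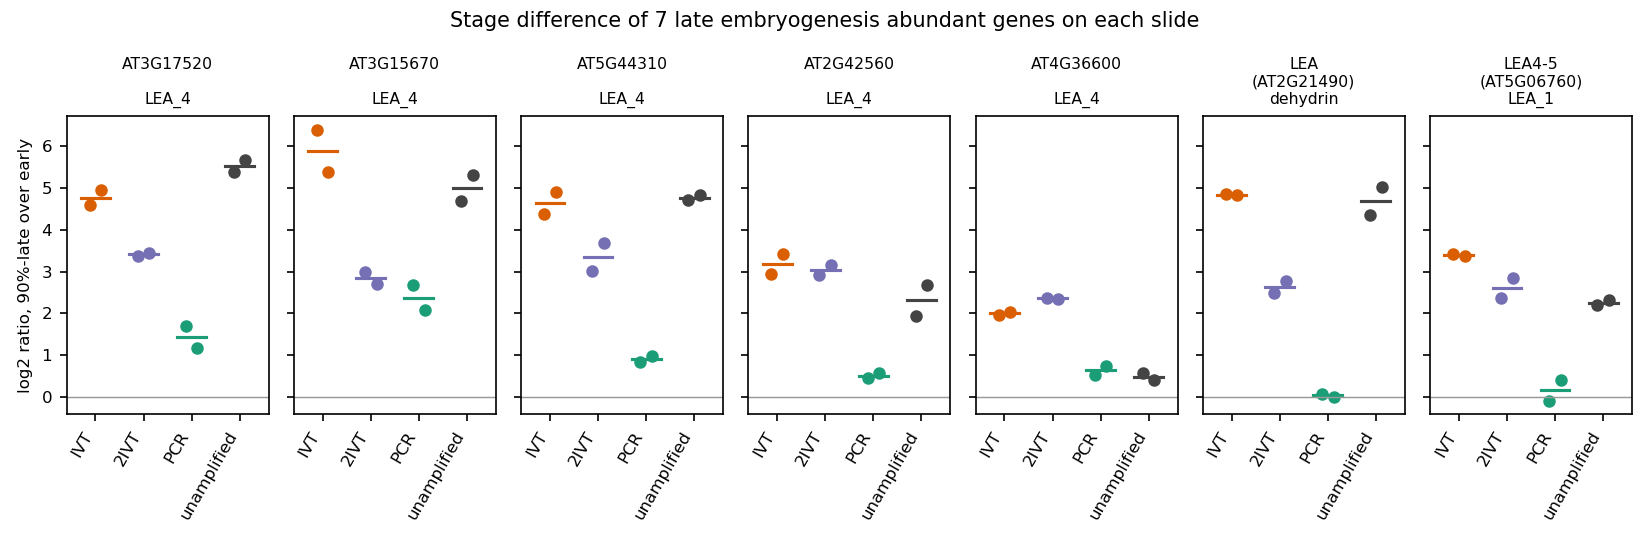
Log2 ratio of 90%-late over early (y axis) for each member on each slide, by target preparation regime (x axis). Points are the 2 slides of a regime and the line is their mean. After PCR, AT2G21490 and LEA4-5 sit near 0, whereas AT3G15670 keeps a mean of 2.37, and AT4G36600 is higher after IVT and 2IVT than unamplified.

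After IVT, 7 of 7 members were called higher in 90%-late, where 22.7% of all probes tested were. The counts were 7 of 7 after 2IVT (20.8% of probes), 5 of 7 after PCR (15.0%) and 7 of 7 unamplified (17.6%), and no member was lower in any regime. With a ratio of at least 2-fold required as well, they were 7 after IVT (8.92% of probes), 7 after 2IVT (6.88%), 2 after PCR (2.43%) and 6 unamplified (6.17%). The members that stayed beyond 2-fold after PCR were AT3G17520 and AT3G15670. Adjusted p-values of the called members ran from 4.02e-10 (AT3G17520, unamplified) to 0.0437 (AT2G42560, PCR) by limma. The median over the members was 4.63 after IVT, 2.85 after 2IVT, 0.64 after PCR and 4.69 unamplified, beside medians over all probes of -0.08, -0.04, -0.01 and -0.07. Without PCR replicate 2, 3 members were called after PCR, and 4 without PCR replicate 1.

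Ordered by the unamplified ratio, the members ran AT3G17520, AT3G15670, AT5G44310, AT2G21490, AT2G42560, LEA4-5 and AT4G36600. Slides of AT3G17520 did not overlap those of AT3G15670, while AT3G15670, AT5G44310 and AT2G21490 overlapped from neighbor to neighbor. A gap of more than 2 units followed, AT2G42560 and LEA4-5 overlapped, and AT4G36600 lay below both. After IVT, AT3G15670 came first and apart, AT2G21490, AT3G17520 and AT5G44310 overlapped as neighbors, then came LEA4-5 and AT2G42560, which overlapped, and AT4G36600 was again last and apart. After 2IVT neighbors overlapped from AT3G17520 down to LEA4-5. The lower slide of LEA4-5 and the upper slide of AT4G36600 were equal as rounded (2.36), so overlap of this last pair is not shown. The means spanned only 2.36 (AT4G36600) to 3.41 (AT3G17520), against 0.48 to 5.53 unamplified. After PCR the order was AT3G15670, AT3G17520, AT5G44310, AT4G36600, AT2G42560, LEA4-5 and AT2G21490, with overlap between AT4G36600 and AT2G42560 and between LEA4-5 and AT2G21490. The dehydrin was thus second after IVT, where its slides overlapped those of AT3G17520, and last after PCR. These orders are descriptions and were not tested.

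The second question was how far each amplified regime departed from unamplified target. The comparisons below share the unamplified slides, so they are not independent of one another. For IVT, 3 members were higher than unamplified (8.05% of all probes were), 1 was lower (9.06%) and 3 were not called. AT4G36600 was higher by 1.52 (95% interval 1.19 to 1.85, adjusted p = 7.33e-05 from limma), LEA4-5 by 1.14 (0.69 to 1.60, adjusted p = 0.00363) and AT2G42560 by 0.87 (0.33 to 1.40, adjusted p = 0.0322), whereas AT3G17520 was lower (difference -0.76, interval -1.21 to -0.31, adjusted p = 0.0265). The difference was 0.89 for AT3G15670 (interval 0.17 to 1.61, adjusted p = 0.0866), -0.14 for AT5G44310 (-0.66 to 0.38, adjusted p = 0.74) and 0.15 for AT2G21490 (-0.32 to 0.61, adjusted p = 0.688). Of these calls, that of AT4G36600 alone was kept under every alternative, at 0.93 under quantile normalization. AT3G17520 lost its call whichever of the 4 slides was left out, with differences of -0.59 and -0.93 without an IVT slide and -0.90 and -0.62 without an unamplified slide. AT2G42560 lost it without IVT replicate 2 (0.63, adjusted p = 0.256) or unamplified replicate 1 (0.50, adjusted p = 0.247), and AT3G15670 gained one without IVT replicate 2 (1.39, adjusted p = 0.0288). When all slides were given the same distribution of ratios by quantile normalization, AT2G42560 (0.06), LEA4-5 (0.26) and AT3G17520 (-0.21) were no longer called. Neither were AT2G42560 (0.25) and LEA4-5 (0.48) when slides were scaled to the same median absolute deviation, under which the differences of AT3G15670 (-0.31) and AT2G21490 (-0.88) changed sign.

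For 2IVT, the 4 members with the largest unamplified ratios were lower than unamplified (8.78% of all probes were lower), and 1, AT4G36600, was higher (8.18% were higher). Those 4 differences were -2.15 for AT3G15670 (95% interval -2.87 to -1.43), -2.11 for AT3G17520 (-2.56 to -1.67), -2.07 for AT2G21490 (-2.53 to -1.60) and -1.42 for AT5G44310 (-1.95 to -0.90). AT4G36600 was higher by 1.88 (1.54 to 2.21, adjusted p = 2.14e-05 from limma). AT2G42560 differed by 0.73 (0.19 to 1.26, adjusted p = 0.064, and 0.0209 without unamplified replicate 2) and LEA4-5 by 0.35 (-0.11 to 0.81, adjusted p = 0.279). Under quantile normalization AT2G21490 alone of the 4 was still called lower (-1.0), and the differences were -0.08 for AT3G17520, -0.76 for AT3G15670 and, with the sign changed, 0.17 for AT5G44310, while AT2G42560 was called higher (1.10). Scaling to the same median absolute deviation kept all 5 calls.

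For PCR, 6 of 7 members were lower than unamplified, where 9.80% of all probes were lower, and none was higher (11.1% of probes were). The dehydrin AT2G21490 had the largest difference, -4.65 (95% interval -5.12 to -4.19, adjusted p = 1.27e-07 from limma), which is a 25.2-fold smaller ratio. AT3G17520 differed by -4.09 and AT5G44310 by -3.87. The differences of AT3G15670 (-2.63), LEA4-5 (-2.09) and AT2G42560 (-1.80) were smaller, the last with the highest adjusted p of the 6, 4.90e-04 from limma. AT4G36600 differed by 0.16 (-0.18 to 0.49, adjusted p = 0.512). All 6 calls were kept with any single slide left out, and 5 were kept under quantile normalization, where AT3G15670 had a difference of 0.46 (adjusted p = 0.447). Those of AT3G17520 (-1.49) and AT5G44310 (-2.06) were smaller there by more than 1.5 times.

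**Figure D2:**
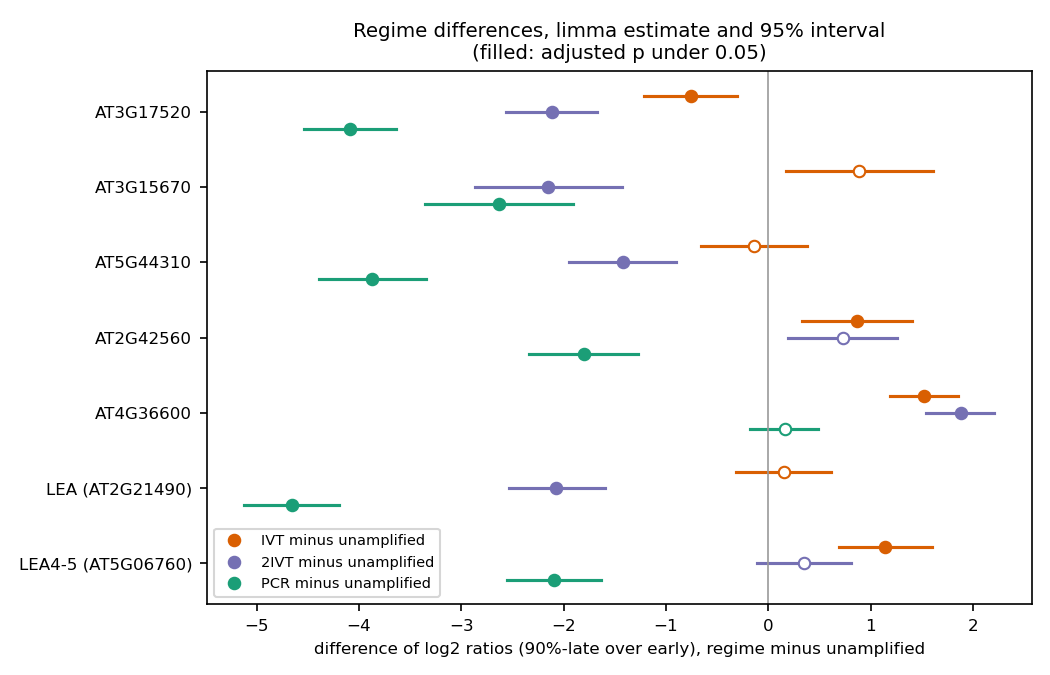
Difference of the log2 ratio between each amplified regime and unamplified target (x axis) for the 7 members (y axis). Points are limma estimates, bars 95% intervals, and filled points have an adjusted p under 0.05. PCR lies at -1.80 or below for every member but AT4G36600, and AT4G36600 is the member called higher for both IVT and 2IVT.

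After the second round of IVT 5 members were lower than after 1 round (7.19% of all probes were lower), and none was higher (7.02% were). These shares rest on 1544 probes higher and 1582 lower, counts that were 339 and 561 without IVT replicate 2 and 2357 and 2202 without 2IVT replicate 2. The differences between 2IVT and IVT were -3.05 for AT3G15670 (adjusted p = 2.37e-04 from limma), -2.21 for AT2G21490, -1.35 for AT3G17520, -1.28 for AT5G44310 and -0.80 for LEA4-5 (adjusted p = 0.0285). AT2G42560 differed by -0.14 (95% interval -0.68 to 0.39) and AT4G36600 by 0.36 (0.02 to 0.69, adjusted p = 0.145). The calls of AT3G15670 and AT2G21490 were kept under every alternative, that of AT2G21490 at -1.24 under quantile normalization. That of LEA4-5 was lost without either IVT slide (-0.78 and -0.82) or without 2IVT replicate 1 (-0.56), and that of AT5G44310 without IVT replicate 2 (-1.02, adjusted p = 0.0734). Under quantile normalization AT3G17520 (0.13), AT5G44310 (0.14) and LEA4-5 (0.17) changed sign and were not called, and AT2G42560 (1.04) and AT4G36600 (0.85) were called higher. Scaling to the same median absolute deviation also ended the calls of AT3G17520 (-0.74), AT5G44310 (-0.65) and LEA4-5 (-0.35).

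From the same 50 ng of RNA, PCR gave smaller ratios than 2IVT for most of the members. The difference between PCR and 2IVT was negative and past the threshold for 6 of 7 members (15.2% of all probes were lower, 16.5% higher), and 4 of the 6 lay close together. These were AT2G21490 at -2.59, AT2G42560 at -2.53, and AT5G44310 and LEA4-5 at -2.44 each. AT3G17520 followed at -1.98 and AT4G36600 at -1.72. AT3G15670 differed by -0.48 (95% interval -1.19 to 0.24, adjusted p = 0.291 from limma), with the sign changed under quantile normalization (1.22, adjusted p = 0.0436) and under scaling to the same median absolute deviation (0.08). The other 6 calls were kept under every alternative, and the median over the members was -2.44, beside 0.03 over all probes.

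**Figure D3:**
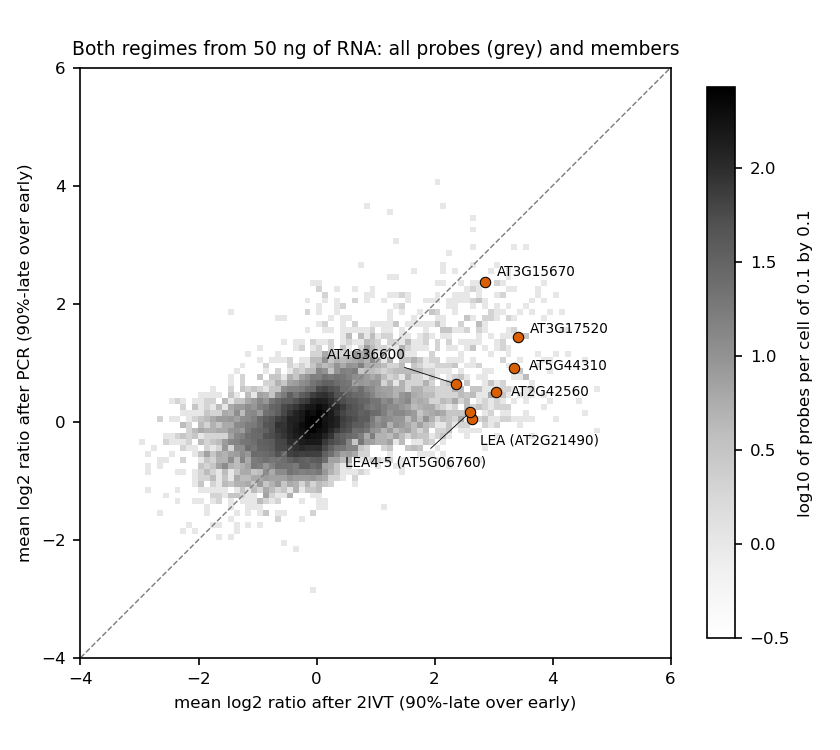
Mean log2 ratio of 90%-late over early after 2IVT (x axis) and after PCR (y axis), both from 50 ng of RNA. Gray cells count all probes on a log10 scale, orange points are the 7 members and the dashed line marks equal ratios. All members lie below the line, AT3G15670 nearest to it, with a mean of 2.85 after 2IVT and 2.37 after PCR.

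Members were also set beside all other probes of a similar unamplified ratio, with the members left out of the sets. This is a description with no test, since the unamplified mean itself defined the sets. AT3G17520, AT3G15670, AT5G44310 and AT2G21490 had an unamplified mean from 4 up to 6. Of the other probes in that range, the median was 4.26 after IVT (90 probes), 2.79 after 2IVT (89 probes) and 1.20 after PCR (83 probes). All 4 members were above that median after IVT, and AT2G21490 was below it after 2IVT. After PCR, 42.2% of the probes lay under 2-fold, as did AT5G44310 and AT2G21490, and the member values ran from 0.04 to 2.37, around quartiles of 0.53 and 1.92. AT2G42560 and LEA4-5 had an unamplified mean from 2 up to 3. Of the other probes in that range, the median was 2.74 after IVT, 2.08 after 2IVT and 0.54 after PCR. After 2IVT, AT2G42560 lay above the third quartile of 2.60 and LEA4-5 at it. After PCR, 67.2% of these 250 probes were under 2-fold, AT2G42560 lay just below the median, and LEA4-5 was below the first quartile of 0.23.

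The 2 slides of a regime differed more for the members than for probes in general after IVT, after 2IVT and unamplified. In those regimes the members had larger ratios than most probes, and slide differences of probes with similar ratios were not examined. The median absolute difference between slides was 0.34 over the members after IVT and 0.12 over all probes. The corresponding values were 0.29 and 0.21 after 2IVT, 0.20 and 0.20 after PCR, and 0.28 and 0.15 unamplified. The widest gaps were 1.0 for AT3G15670 after IVT, 0.74 for AT2G42560 unamplified and 0.68 for AT5G44310 after 2IVT. Differences above the 95th percentile of all probes were found for 3 members after IVT and 3 unamplified, and for none after 2IVT or PCR. These counts were not tested.

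A list of 51 Arabidopsis LEA genes, set out by class, placed the members among their relatives. Outside the members it had 44 genes, of which 27 had a named probe and 25 had values on both slides of a regime (24 after PCR). Of these 25, the calls in 90%-late were 15 higher and 3 lower for IVT, 11 and 3 for 2IVT, 6 and 1 for PCR, and 15 and 3 unamplified. The shares of all probes called lower were 32.0%, 26.2%, 16.4% and 26.0%, and those called higher are given above. The medians of these relatives were 0.52, 0.23, 0.12 and 0.54 in the same order. That these lie below the medians of the members was not tested and cannot be separated from how the members were chosen.

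In the LEA_4 class, 5 of 8 measured relatives were higher after IVT, 4 after 2IVT, 5 after PCR and 7 unamplified, and 1, COR15B, was lower after 2IVT (-0.71 ± 0.60). AT3G53040 had means of 3.04 ± 0.27 after IVT, 2.47 ± 0.03 after 2IVT, 1.54 ± 0.02 after PCR and 1.97 ± 0.40 unamplified (SD, n = 2 each), and passed the threshold in all of them. AT1G72100 had 3.50 ± 0.26, 0.27 ± 0.27, 0.65 ± 0.48 and 1.75 ± 0.39, so it passed after 1 round of IVT and not after 2 (adjusted p = 0.263 from limma). AT2G03850 resembled AT4G36600 in being higher after IVT (2.86 ± 0.29) and 2IVT (2.10 ± 0.05) than unamplified (0.88 ± 0.22), by 1.98 and 1.22, both past the threshold. Unlike AT4G36600, it was lower after PCR than unamplified (-0.78, adjusted p = 0.0299 from limma). AT2G18340 was also called higher than unamplified after IVT (0.66) and 2IVT (0.88), and not called after PCR (0.15). COR15A, a cold-induced protein of the chloroplast stroma, had -0.29 ± 0.29 after IVT, 0.08 ± 0.07 after 2IVT, 0.83 ± 0.12 after PCR and 0.97 ± 0.07 unamplified, and was called higher after PCR and unamplified.

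Among the dehydrins, AT4G38410 had 3.51 ± 0.08 after IVT, 1.84 ± 0.21 after 2IVT, 0.07 ± 0.44 after PCR and 2.26 ± 0.17 unamplified (SD, n = 2 each). Like AT2G21490 it was not called after PCR (adjusted p = 0.749 from limma), and its difference of PCR from unamplified was -2.19 (adjusted p = 4.77e-05). Another dehydrin, AT4G39130, ran the other way and was lower in 90%-late after IVT (-0.52 ± 0.21), after 2IVT (-0.97 ± 0.12) and unamplified (-1.02 ± 0.22). No dehydrin with a value on both PCR slides passed the threshold after PCR. The same held for the measured genes of the LEA_3, seed maturation protein, PvLEA18 and AtM classes. After PCR 15.0% of all probes were called higher and 16.4% lower, so a lack of calls is not particular to dehydrins. In the LEA_1 class both relatives of LEA4-5 were higher after IVT, after 2IVT and unamplified. AtLEA4-1 had 2.74 ± 0.10, 1.75 ± 0.30, 1.0 ± 0.09 and 2.64 ± 0.02 and was also called after PCR. LEA18 had 2.76 ± 0.03, 1.52 ± 0.21, 0.06 ± 0.48 and 2.46 ± 0.14 and was not (adjusted p = 0.796 from limma).

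The smaller classes were less uniform. Both LEA_2 genes measured had negative ratios in all regimes. AT2G44060 was called lower after IVT (-1.01 ± 0.08), after PCR (-1.0 ± 0.03) and unamplified (-0.99 ± 0.04), and AT2G46140 was called lower after IVT (-1.03 ± 0.06) and 2IVT (-0.79 ± 0.38). The LEA_2 proteins are atypical in being more hydrophobic and folded. Of the seed maturation protein (SMP) class, AT5G53270 had 1.94 ± 0.24 after IVT, 1.93 ± 0.36 after 2IVT, -0.10 ± 0.09 after PCR and 0.33 ± 0.10 unamplified, and was called after IVT and 2IVT. AT2G23110 of the PvLEA18 class had 4.35 ± 0.24, 2.75 ± 0.17, 0.29 ± 0.01 and 2.13 ± 0.16 and was called in all but PCR. Over the 25 relatives, differences from unamplified were called higher for 10 and lower for 2 after IVT (8.05% and 9.06% of all probes), and for 7 and 7 after 2IVT (8.18% and 8.78%). After PCR they were 1 and 8 of 24 (11.1% and 9.80%). Between PCR and 2IVT, 3 of these 24 were higher after PCR and 11 lower (16.5% and 15.2% of all probes). The median of that difference was 0.01, where the median ratio of the relatives after 2IVT was itself only 0.23. Each relative with a 2IVT mean of at least 2-fold was called lower after PCR, from AT2G18340 (-0.72) to AT2G23110 (-2.46). The 2IVT mean enters both the choice of these relatives and the difference, so this is a description and was not tested.

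**Figure D4:**
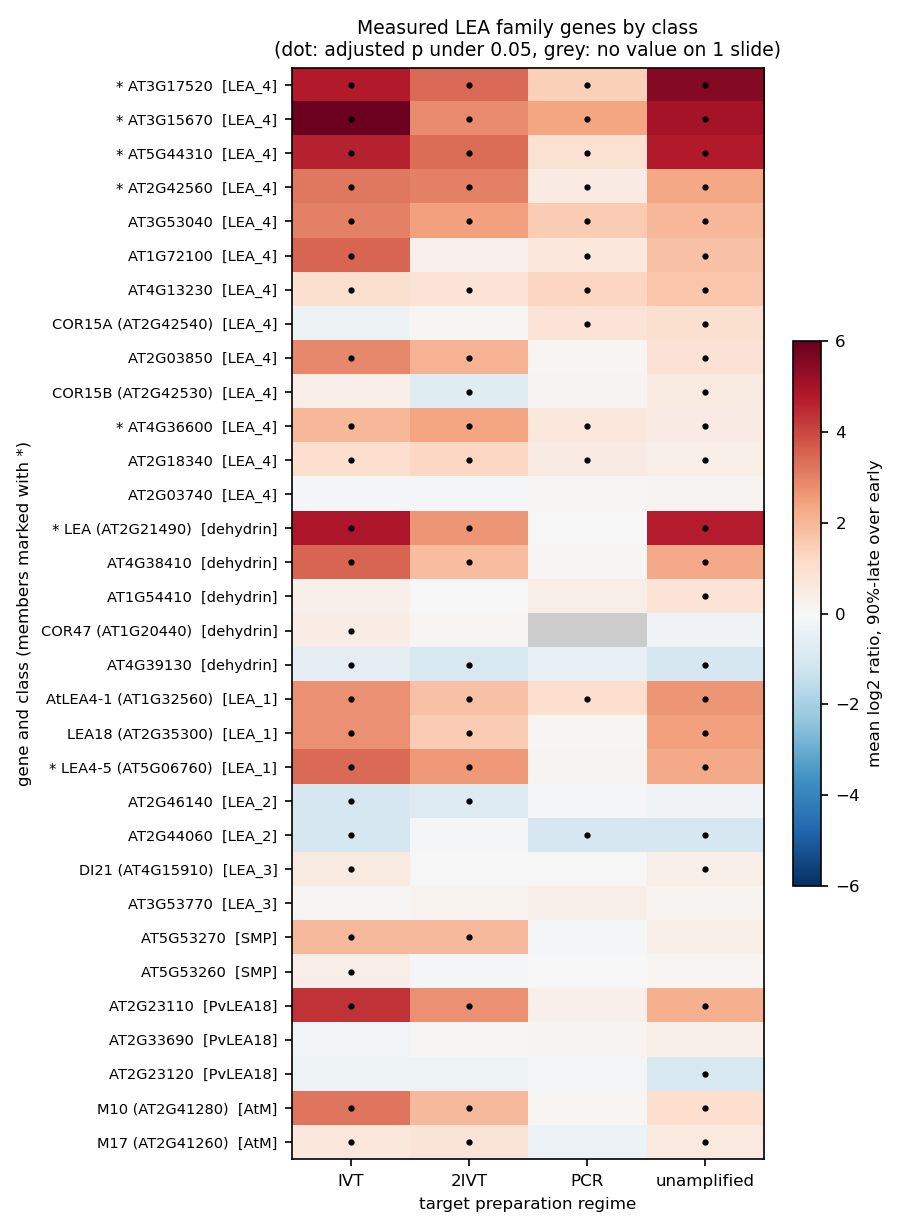
Mean log2 ratio of 90%-late over early (color) for the 32 measured LEA genes (rows, grouped by class, members marked with an asterisk) under each regime (columns). Dots mark an adjusted p under 0.05 and gray a missing value on a slide. The PCR column is the palest, with 11 of 31 genes called higher there (15.0% of all probes) against 22 of 32 unamplified (17.6%).

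Few of the genes listed for their part in the maturing seed were measured here. Of 10 listed regulators of seed maturation the measured gene was EEL, a bZIP transcription factor that binds abscisic acid response elements of LEA promoters. Its log2 ratios were 3.49 and 3.63 for IVT, 2.23 and 2.41 for 2IVT, 0.38 and 0.65 for PCR, and 2.68 and 3.30 unamplified. It was called higher in all of them, with the IVT slides above the unamplified slides and the PCR slides lowest. The means were 3.56 ± 0.10, 2.32 ± 0.13, 0.51 ± 0.19 and 2.99 ± 0.43 (SD, n = 2 each). AT1G53540, a small heat shock protein and the measured gene of 12 listed companions of desiccation tolerance, had 0.86 ± 0.12 after IVT, 0.32 ± 0.19 after 2IVT, 0.26 ± 0.22 after PCR and 0.16 ± 0.31 unamplified, and was called after IVT only. The lists were chosen with earlier results of these data known, so their genes describe the samples and cannot check the tissue label. The storage protein gene AT1G03890, measured of 9 listed, was called higher in all 4 regimes, with unamplified slides far apart at 4.05 and 6.30. Of the measured oil body genes, 4 of 4 were called higher after IVT and unamplified, 3 of 4 after 2IVT and 2 of 2 after PCR. The shares of all probes called higher were 22.7%, 17.6%, 20.8% and 15.0% in that order. The endosperm gene PHE1 was called lower in 90%-late after IVT (-0.59 ± 0.12) and 2IVT (-0.47 ± 0.28) and not after PCR (0.02 ± 0.20) or unamplified (-0.25 ± 0.44). The seed coat gene BAN had -1.45 ± 0.11 after IVT, 0.07 ± 0.01 after 2IVT, -0.19 ± 0.08 after PCR and -0.34 ± 0.05 unamplified, called lower in the first and the last. DFR, also of the seed coat, was called lower unamplified (-0.66 ± 0.07) and had -0.25 ± 0.08, 0.03 ± 0.05 and -0.27 ± 0.01 after IVT, 2IVT and PCR. The part of these tissues in the ratios of the members was not tested. Of the 4 listed genes of green tissue none was measured, so the share of pod wall was not examined.

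The named probes whose profile was most like the members were found by the root mean square difference over the 8 slides from the median profile of the members, among 11242 probes outside the LEA list. The nearest was JMT, a jasmonic acid carboxyl methyltransferase gene, with a root mean square difference of 0.30. The members themselves lay between 0.36 (AT5G44310) and 2.46 (AT4G36600) from that profile, and 4 of the 7 at 1.18 or more, so the probes named here are like the median and not like each member. JMT had means of 4.48 ± 0.23 after IVT, 2.70 ± 0.04 after 2IVT, 1.09 ± 0.03 after PCR and 4.38 ± 0.04 unamplified (SD, n = 2 each). The next were AT3G61930 (0.44), AT5G01300 (0.45), AT3G14760 (0.46), AT1G14020 (0.48) and AT4G31830 (0.48). AT1G14020 shared with AT2G21490 a PCR mean near 0 (0.10 ± 0.10) beside an unamplified mean of 4.28 ± 0.30. The likeness is a description over 8 slides of the same RNA pair.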

How the data were processed

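The authors scanned 8 slides of long oligonucleotides, with both dyes on each, in GenePix. Their normalization, built on SNOMAD in S-PLUS, removed from each slide's ratios an overall offset and trends with spot position and with brightness. The deposited values are log2 ratios of early (Cy5) over 90%-late (Cy3), with scale and direction inferred as described above. Per the paper's methods, low spots were discarded or interpolated and saturated spots took their value from a scan at low power. The sources used here do not say whether the deposited values follow these steps. Intensities were not used here, so signal over background is unknown for each probe.

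Here the sign was turned and no further normalization was applied. Of 26912 probes, 14539 carried a symbol in the array's annotation and 14485 were matched to a locus through the RefSeq gene table. limma (lmFit and eBayes) fitted all 8 slides with a mean for each regime, with 1 estimate of the spread for all regimes and 6.65 prior degrees of freedom. The fit was tested on simulated data. Each regime mean, and 5 differences between regimes, were tested over probes with values on both slides. Alternatives were median centring, quantile normalization, scaling to the same median absolute deviation (differences only), a separate fit of the regimes compared, robust eBayes, probes with values on all 8 slides, the replicate number as a block, and leaving out each slide.

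Named are all 7 members, measured genes of the 51 listed LEA genes, up to 2 measured genes of each other list with the largest unamplified ratio, and the 6 nearest profiles. The members and the lists were chosen with earlier results of these data known. The software was limma 3.58.1 in R 4.3.3, and numpy 2.4.6, pandas 2.3.3 and matplotlib 3.10.9 in Python 3.11.15.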

Additional observations from a re-analysis of the deposited data

Results flagged for a closer look

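For the 7 members, the stage difference itself differed between an amplified regime and unamplified target in 15 of 21 comparisons by limma's test of the difference (adjusted p under 0.05, 2 slides a regime, positive when larger after amplification). After IVT these were AT4G36600 (1.52), LEA4-5 (1.14), AT2G42560 (0.87) and AT3G17520 (-0.76). After 2IVT they were AT4G36600 (1.88), AT3G15670 (-2.15), AT3G17520 (-2.11), AT2G21490 (-2.07) and AT5G44310 (-1.42). After PCR they were AT2G21490 (-4.65), AT3G17520 (-4.09), AT5G44310 (-3.87), AT3G15670 (-2.63), LEA4-5 (-2.09) and AT2G42560 (-1.80). The comparisons share the unamplified slides. Of all probes, 8.05% were higher and 9.06% lower for IVT, and 8.18% higher and 8.78% lower for 2IVT. For PCR, 11.1% were higher and 9.80% lower. These shares cover probes of any ratio. Probes outside the members with an unamplified mean from 4 up to 6, the range of 4 members, had medians of 4.26 (IVT), 2.79 (2IVT) and 1.20 (PCR). Those from 2 up to 3, the range of 2 members, had 2.74, 2.08 and 0.54. The paper also reports compression of ratios by amplification, least for IVT and most for PCR. Whether the members departed more than other probes of similar ratio was not tested. The call of AT3G17520 after IVT was lost whichever of the 4 slides was left out, and that of AT2G42560 after IVT without IVT replicate 2 (0.63) or unamplified replicate 1 (0.50). Quantile normalization ended the calls of AT3G17520, AT2G42560 and LEA4-5 after IVT, of AT3G17520, AT3G15670 and AT5G44310 after 2IVT, and of AT3G15670 after PCR.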

How the results depend on the processing

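The calls of the members between the stages were the same under every alternative but leaving out a slide. Median centring, robust eBayes and probes with values on all 8 slides changed no call of a member, and a separate fit changed 1 (AT2G42560, IVT minus unamplified, adjusted p = 0.0593 from limma). Quantile normalization, which by construction gives all slides the same distribution, moved the member medians to 3.70 (IVT), 3.03 (2IVT), 0.99 (PCR) and 3.64 (unamplified). For differences it gave 1 member higher and 0 lower, with a median of 0.24, for IVT minus unamplified, and 2 higher and 1 lower (0.17) for 2IVT minus unamplified. It gave a median of -1.50 for PCR minus unamplified, 2 higher and 2 lower (0.14) for 2IVT minus IVT, and 1 higher (-2.23) for PCR minus 2IVT. AT5G44310 (0.03, IVT minus unamplified) changed sign besides the reversals given above, which were 0.17, 0.46, 0.13, 0.14, 1.04, 0.17 and 1.22. With the same median absolute deviation, IVT minus unamplified had 1 member higher and a median of -0.31, 2IVT minus unamplified a median of -1.81, 2IVT minus IVT 2 members lower and a median of -0.65, and PCR minus 2IVT a median of -2.23. Signs changed for AT3G15670 (-0.31) and AT2G21490 (-0.88) in IVT minus unamplified, AT2G42560 (0.25) in 2IVT minus IVT and AT3G15670 (0.08) in PCR minus 2IVT. Over all probes it called 437 higher and 676 lower in 2IVT minus IVT, in place of 1544 and 1582. After PCR, quantile normalization also raised AT3G17520 to 2.58, AT3G15670 to 4.25, AT5G44310 to 1.61 and AT4G36600 to 0.99, and under the same median absolute deviation AT3G17520 was at -1.85 in IVT minus unamplified. Apart from what the construction of a setting shows, the cause was not tested.

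Replicate numbers did not pair the slides. The correlation of slide differences between regimes ran from -0.06 to 0.031, and with the replicate block 2 members were higher in 2IVT minus unamplified (AT2G42560 added, adjusted p = 0.0278 from limma) with no other member call changed. With a slide left out, which leaves fewer degrees of freedom, all probes called higher and lower ranged from 893 to 1202 and 784 to 1168 in IVT minus unamplified, and from 1177 to 1594 and 1261 to 1650 in PCR minus unamplified. Member medians ranged from 4.37 to 4.83 (IVT), 2.84 to 2.92 (2IVT), 0.53 to 0.74 (PCR) and 4.36 to 4.84 (unamplified). Members called higher ranged from 3 to 4 after PCR and from 6 to 7 unamplified. For IVT minus unamplified 2 to 3 were higher and 0 lower (median 0.40 to 1.21), and for 2IVT minus unamplified 1 to 2 were higher (-1.76 to -1.08). For 2IVT minus IVT 3 to 5 were lower (-1.52 to -0.94). The median ran from -2.94 to -2.31 for PCR minus unamplified and from -2.64 to -2.10 for PCR minus 2IVT. With a slide left out, the sign was not kept for AT2G21490 (0.00 to 0.08) and LEA4-5 (-0.09 to 0.41) after PCR, for AT2G21490 (-0.18 to 0.47) and AT5G44310 (-0.40 to 0.12) in IVT minus unamplified, and for AT2G42560 (-0.38 to 0.10) in 2IVT minus IVT. None of these was called.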

Other observations

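Several measured LEA genes lie next to each other in the RefSeq gene order, with unlike ratios in some regimes. AT2G23110 and AT2G23120, adjacent genes of the PvLEA18 class, had unamplified means of 2.13 ± 0.16 and -0.95 ± 0.13 (SD, n = 2), called higher and lower. After IVT they were at 4.35 ± 0.24 and -0.28 ± 0.01. AT5G53270 and AT5G53260, adjacent genes of the SMP class, had 1.94 ± 0.24 and 0.41 ± 0.35 after IVT and 1.93 ± 0.36 and -0.10 ± 0.00 after 2IVT, but -0.10 ± 0.09 and 0.00 ± 0.07 after PCR and 0.33 ± 0.10 and 0.11 ± 0.08 unamplified, none of these last called. M10 and M17 had 3.19 ± 0.10 and 0.61 ± 0.16 after IVT, and 0.99 ± 0.31 and 0.58 ± 0.18 unamplified. AT2G42560, the member with measured LEA neighbors close by, has 1 protein-coding gene between it and COR15A and 2 between it and COR15B. COR15B had 0.39 ± 0.37 after IVT, -0.71 ± 0.60 after 2IVT, 0.15 ± 0.07 after PCR and 0.54 ± 0.04 unamplified, while AT2G42560 was between 0.51 and 3.18 in the same regimes. Differences between neighbors were not tested.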
